A study of Danio rerio with 24 samples.

Results

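Cytochrome P450 enzymes are haem proteins that insert oxygen into small molecules, and the liver is their main site in vertebrates. Enzymes of families 1 to 3 act on drugs, pollutants and plant compounds, and several also oxidise fatty acids and steroids. Family 4 mostly hydroxylates fatty acids, and other families build or break down cholesterol, bile acids or bile alcohols, steroid hormones, vitamin D and retinoic acid. Most are anchored in the endoplasmic reticulum and draw electrons from P450 reductase or cytochrome b5, while the mitochondrial ones draw them from ferredoxin. Expression of several family 1 genes, CYP1A1 among them, is driven by the aryl hydrocarbon (Ah) receptor. That of families 2 and 3 is driven partly by nuclear receptors such as PXR.

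The zebrafish P450 genes were taken as every gene whose symbol starts with CYP and a digit, which gave 85 of 32105 genes counted. By the number in the symbol, 5 belonged to family 1, 40 to family 2, 5 to family 3 and 4 to family 4. A further 17 were sterol and bile acid genes, 7 steroid hormone genes and 6 vitamin genes (vitamin D or retinoic acid). The remaining gene was CYP20A1, whose substrate is unknown. CYP2R1, a vitamin D hydroxylase in mammals, stayed with family 2. CYP8B1 and CYP27A1 were each the symbol of 3 genes, and CYP4V2 and CYP11A1 each of 2, so these are given with the gene identifier.

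Liver RNA was sequenced from 24 male zebrafish of the AB JxTu strain, 1 library per fish. There were 9 fish aged 1 year labelled with rotenone at 3.75 nM (low-dose fish), 9 aged 1 year at 37.5 nM (high-dose fish) and 6 aged 3 years at 37.5 nM (3-year fish), which also carried the transgene Tg(flk:mCherry). Rotenone inhibits mitochondrial complex I. Every fish carried a rotenone label, so no untreated background can be given. How long the fish were exposed is not given. Age therefore cannot be told apart from the transgenic line, nor dose from the deposited count table, since all low-dose fish were in a table of their own. Fish numbers in the titles fell into a lower series (163 to 181) with 4 low-dose, 4 high-dose and 2 three-year fish, and an upper series (189 to 202) with 5, 5 and 4. What separated the series is not given.

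Total counts per library ran from 24644663 to 45297644, and the P450 genes took 0.559% to 0.859% of them (median 0.694%). Levels are in CPM (counts scaled to library size, with TMM factors). Hepatocyte markers summed to 115525 to 273684 CPM in low-dose fish, 140723 to 356299 CPM in high-dose fish and 184225 to 284439 CPM in 3-year fish. Of the 23 markers 1 averaged under 0.5 CPM, CPS1, with at most 0.0524 CPM in any fish. TTR and hp were also modest, with medians of 103 and 101 CPM, whereas tfa had at least 27055 CPM in every fish. In bulk RNA, fewer cells of a type and less RNA per cell cannot be told apart. Markers of intestine were high in 4 libraries, low-dose replicates 3 and 6 and high-dose replicates 5 and 7, whose mean log2 CPM over the list lay 3.30 to 4.86 above the median library. Low-dose replicate 8 lay 1.96 above it. Summed markers of exocrine pancreas also varied, from 79.6 to 25412 CPM in low-dose, 211 to 15536 in high-dose and 218 to 9806 in 3-year fish. Low-dose replicates 1 to 4, those of the lower number series, had 17329, 20189, 18645 and 3337 CPM. No fit left libraries out by the pancreas markers, and the part of pancreatic RNA was not tested. Summed hepatocyte markers were lowest in low-dose replicate 6 (115525 CPM) and high-dose replicate 7 (140723 CPM).

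A few P450 genes made most of the P450 message. To compare genes, CPM were divided by transcript length. The 5 highest genes held 47.6% of the P450 signal per kilobase, the 12 highest held 70.1% and the 20 highest held 85.1%. The highest was cyp2k22, of a subfamily found in fish, at 482 ± 194 CPM per kilobase (mean ± SD over 24 fish). Next came cyp2ad2, another family 2 gene of fish, at 362 ± 157, and CYP1A1, the classical Ah receptor target that oxidises polycyclic aromatic hydrocarbons, at 282 ± 82.3. The intervals of mean ± SD overlapped among these 3 genes.

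Below them stood one gene each of families 4 and 3. CYP4V2 ENSDARG00000062132, whose human counterpart hydroxylates fatty acids, had 189.7 ± 62.0 CPM per kilobase. The zebrafish CYP3A gene cyp3a65, related to the main drug-metabolising enzyme of human liver, had 178 ± 94.1. The family 2 genes cyp2y3 and cyp2n13 followed with 144 ± 49.2 and 115 ± 44.3. CYP8B1 ENSDARG00000053068, the counterpart of the sterol hydroxylase that sets the hydroxylation pattern of mammalian bile acids, averaged 105, 107 and 83.0 in low-dose, high-dose and 3-year fish. The last 4 of the highest 12 were cyp2x8 (94.2 ± 41.9), CYP51A1 (86.2 ± 72.1), cyp2x9 (84.5 ± 44.6) and cyp2p9 (83.8 ± 30.7). CYP51A1, the lanosterol demethylase of cholesterol synthesis, had the widest spread of the 12 relative to its mean. The 12 genes ranked highest over all fish included 12 of the 12 highest in high-dose fish, 11 of 12 in low-dose fish and 9 of 12 in 3-year fish.

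**Figure D1:**
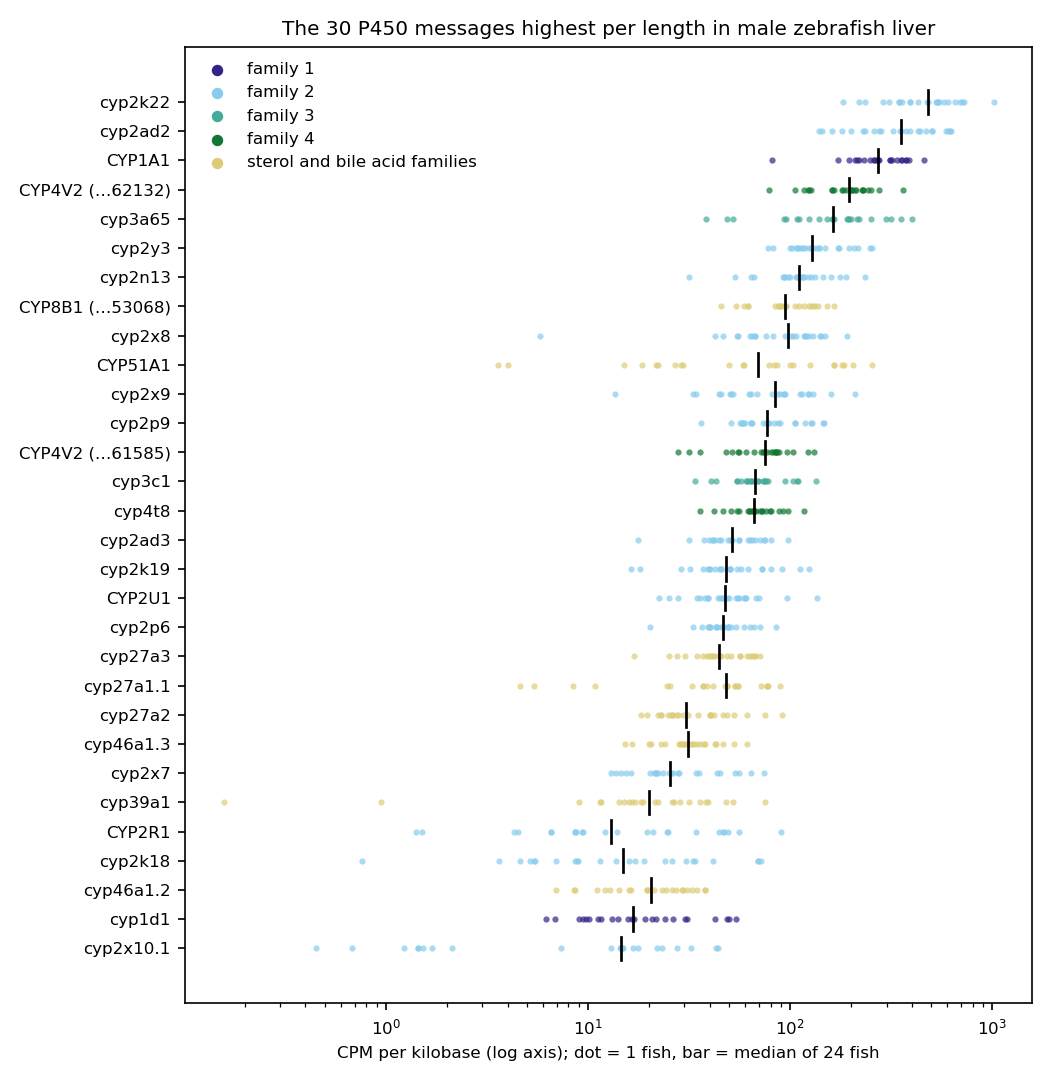
Level of the 30 P450 genes highest per length, in CPM per kilobase on a log axis. Each dot is 1 of 24 fish, the bar is the median and colours give the gene class. CYP51A1, cyp39a1, cyp2x8, cyp2x9 and cyp3a65 are among those that spread over more than a factor of 10, whereas CYP1A1 and cyp2y3 spread less.

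At the other end, 14 genes had a mean under 0.5 CPM in every group. They included all 7 steroid hormone genes, which summed to at most 2.54 CPM in any fish, and CYP8B1 ENSDARG00000097559, which had no count in any library. Of the 85 genes, 20 had a mean of at least 100 CPM, 27 lay between 10 and 100 CPM, 23 between 1 and 10 CPM and 15 under 1 CPM. Without division by length, family 2 took about as many counts as all other classes together, with a median of 50.5% of the summed P450 CPM per fish. Family 4 held 14.6%, the sterol and bile acid genes 12.9%, family 1 held 10.4% and family 3 held 8.62%. Divided by length, the median sums were 1683 CPM per kilobase for family 2 and 405 for the sterol and bile acid genes. They were 338 for family 4, 293 for family 1 and 244 for family 3, so the sterol and bile acid genes then stood above family 4.

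The total was similar in the groups. Summed P450 CPM were 7130 ± 1283 in low-dose fish, 7438 ± 1726 in high-dose fish and 7060 ± 1033 in 3-year fish (mean ± SD, n = 9, 9 and 6), and these ranges overlapped. The sterol and bile acid genes summed to 1091 ± 310.3, 1001 ± 281 and 749 ± 158 CPM in the same order, and family 4 to 910.3 ± 267, 1076 ± 272 and 1195 ± 114 CPM. No test was made on these sums.

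Many P450 genes lie next to each other, and neighbours differed widely in level. By symbol, 72 of the genes were matched to the RefSeq annotation, and 42 of these lay in 9 runs holding 2 or more of them. The 10 genes that share a symbol were not looked up. The annotation also places 3 cyp8b1 genes side by side, and 2 cyp11a1 genes, which are not in that count. The longest run held 11 family 2 genes from cyp2n13 to cyp2j20. Within it, cyp2ad2 reached 362 CPM per kilobase, cyp2n13 115 and cyp2p9 83.8, while cyp2v1 had 9.19 and cyp2p10, beside cyp2p9, had 2.91. In the run of 4 cyp3c genes, cyp3c1 had 71.9 and the others 7.43 (cyp3c3), 3.74 (cyp3c4) and 2.23 (cyp3c2). Close copies may share reads, and how the counting treated such reads is not stated. Values of single genes in these runs, and of genes that share a symbol, are uncertain to that extent.

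The dose comparison set the 9 high-dose against the 9 low-dose fish aged 1 year. After a filter on low counts, 70 of the 85 P450 genes were tested within a fit of all genes (edgeR quasi-likelihood F test, Benjamini-Hochberg adjusted p below 0.05). At 37.5 nM 5 genes were higher and 1 was lower. The 5 were cyp1d1, CYP2U1, cyp2aa1, cyp3c1 and cyp46a1.3, and the lower one was cyp2k19. Among all 15465 genes tested, 11.4% passed, 3.19% higher and 8.19% lower. The 6 P450 genes that passed were thus 8.57% of those tested, near the background, and the count is not a result about P450 genes. The median log2 change was 0.18 over the 70 genes and 0.027 over all genes tested.

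**Figure D2:**
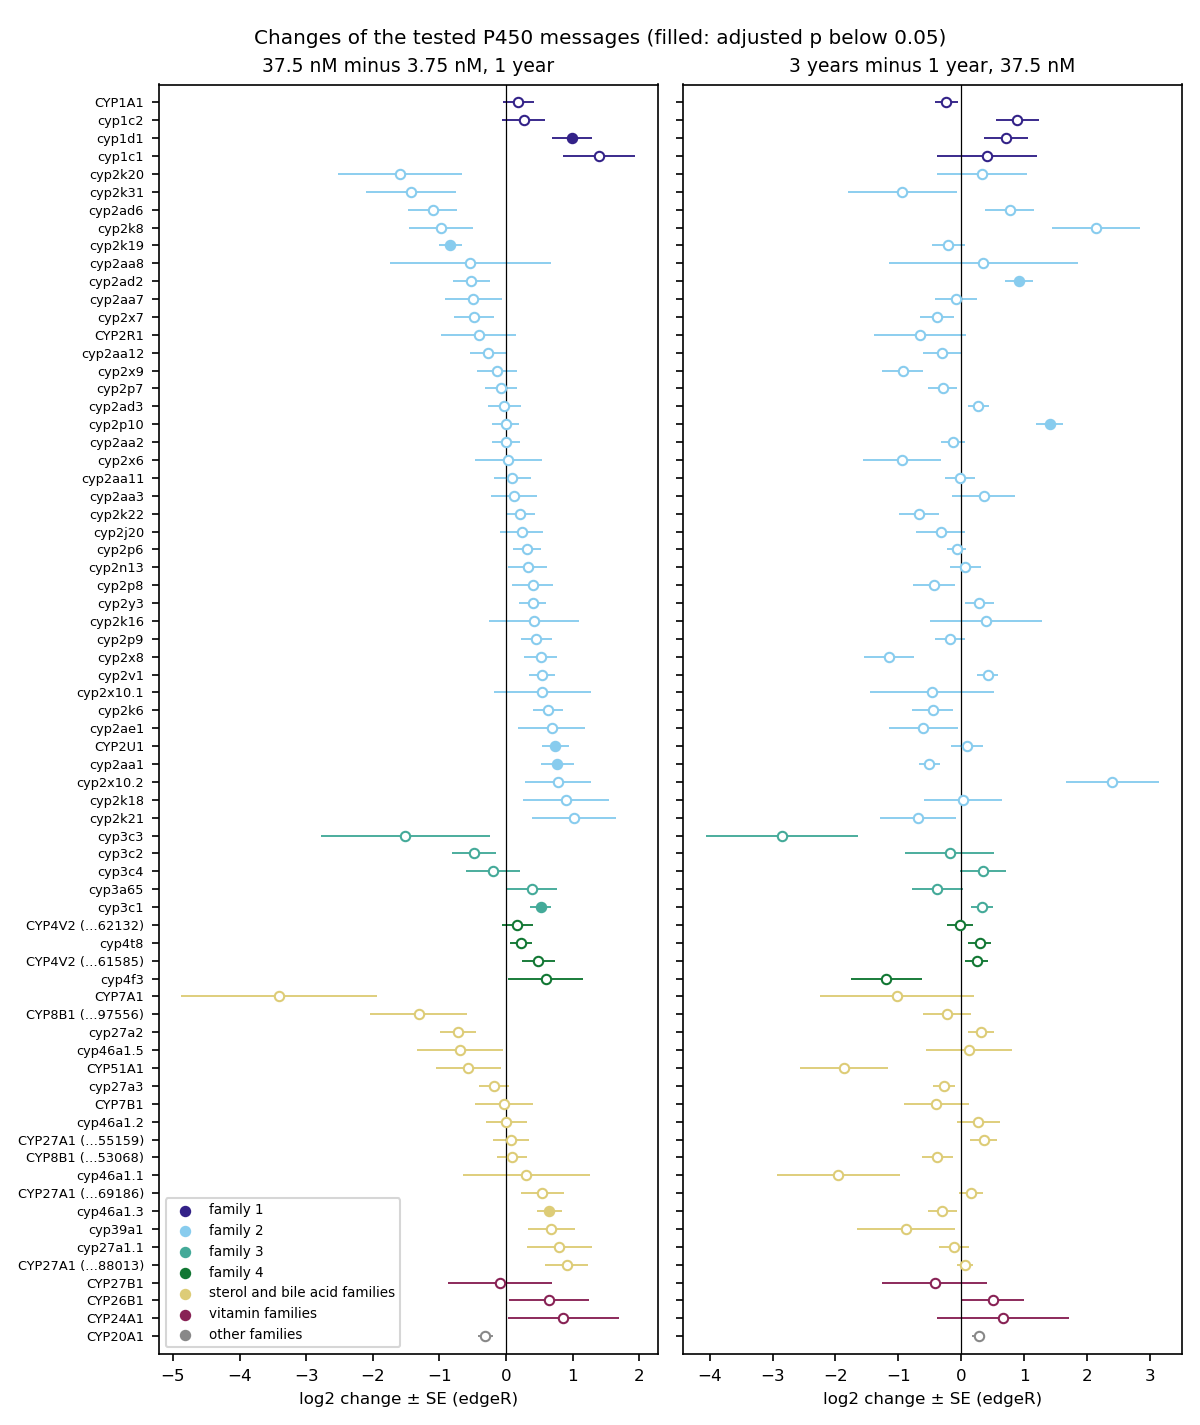
Log2 change (± SE, edgeR) of each tested P450 gene for dose (left) and age (right), grouped and coloured by class. Filled circles passed an adjusted p of 0.05: 6 for dose and 2 for age.

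In family 1, 1 of 4 tested genes rose and none fell. The riser was cyp1d1, whose human counterpart is a pseudogene. It ran from 14.5 to 44.6 CPM with a median of 23.6 in low-dose fish and from 16.0 to 113 CPM with a median of 39.2 in high-dose fish, a log2 change of 0.99 ± 0.30 (SE; adjusted p = 0.0422). Of the 9 high-dose fish, 4 lay above every low-dose fish, and the groups otherwise overlapped. CYP1A1 had the ranges 211 to 1203 CPM with a median of 699.5 and 547 to 1007 CPM with a median of 812, with a log2 change of 0.19 ± 0.23 (adjusted p = 0.636). Its lowest value lay in low-dose replicate 6, where hepatocyte markers were also lowest, and the part of that was not tested. Without the 4 libraries high in intestine markers, replicate 6 among them, the CYP1A1 change was 0.038 (adjusted p = 0.916). The paired genes cyp1c1 and cyp1c2, Ah receptor targets in fish, were scarce in liver. Cyp1c1 had 2.46 ± 1.31 CPM against 6.23 ± 4.90, a log2 change of 1.4 ± 0.54 that did not pass (adjusted p = 0.0987). Cyp1c2 had 0.767 ± 0.402 and 0.888 ± 0.413 CPM and did not pass.

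Family 2 had 2 genes that rose and 1 that fell among 37 tested. Cyp2k19, in a run with 7 other cyp2k genes, gave the lowest adjusted p of any P450 gene in the dose comparison. It ran from 155 to 424 CPM with a median of 251 in low-dose fish and from 99.5 to 173 CPM with a median of 147 in high-dose fish. In 6 of 9 high-dose fish it lay below all low-dose fish, and the log2 change was -0.84 ± 0.17 (adjusted p = 0.00730). The call held in all 18 fits that left out 1 fish. In the lower number series alone the change was -1.14 (adjusted p = 9.45e-04), and in the upper series alone, where 0 of all genes were called, it was -0.49 (adjusted p = 0.645).

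CYP2U1, a fatty acid hydroxylase in mammals, ran from 38.5 to 103 CPM with a median of 61.1 in low-dose fish and from 64.8 to 164 CPM with a median of 95.3 in high-dose fish (log2 change 0.74 ± 0.21, adjusted p = 0.0287). In 3 high-dose fish it was above every low-dose fish. Cyp2aa1, of a subfamily found in fish, ran from 5.98 to 16.3 CPM with a median of 10.3 and from 11.1 to 26.6 CPM with a median of 18.9 (log2 change 0.77 ± 0.24, adjusted p = 0.0486), with 6 of 9 high-dose fish above all low-dose fish. The 4 low-dose fish of the lower number series and low-dose replicate 5 held the 5 lowest values of cyp2aa1, between 5.98 and 10.3 CPM. In the same run of genes, cyp2aa2 and cyp2aa3 did not pass.

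Of the 5 family 3 genes, cyp3c1 alone passed. Its values were 75.3 to 163 CPM with a median of 121 in low-dose fish and 135 to 230.3 CPM with a median of 154 in high-dose fish. The log2 change was 0.52 ± 0.16 (adjusted p = 0.0443), and 4 high-dose fish lay above all low-dose fish. Cyp3a65 had a wide range in both groups, 129.6 to 1067 CPM with a median of 406 and 102 to 936 CPM with a median of 519, and did not pass (log2 change 0.38 ± 0.37, adjusted p = 0.531). The highest cyp3a65 value of each group came from an intestine-high library, and without the 4 its change was 0.54 (adjusted p = 0.402). Cyp3c2 and cyp3c4 averaged 4.78 and 8.96 CPM in low-dose fish and 3.30 and 7.56 CPM in high-dose fish, and neither passed.

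None of the 4 tested family 4 genes passed for dose. CYP4V2 ENSDARG00000061585 had 287 ± 116 and 393 ± 114 CPM (log2 change 0.49 ± 0.25, adjusted p = 0.206). Its paralog CYP4V2 ENSDARG00000062132 had 477 ± 214 and 516 ± 146 CPM, and cyp4t8 had 145 ± 29.1 and 166 ± 41.5 CPM. Cyp4f3 averaged 0.865 and 1.32 CPM. CYP20A1 averaged 27.1 ± 5.12 and 21.2 ± 2.63 CPM and did not pass.

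The dose calls for higher levels were close to the threshold. With 1 fish left out, significance was lost in 5 of 18 fits for CYP2U1, 8 for cyp46a1.3, 11 for cyp1d1 and 12 each for cyp3c1 and cyp2aa1, with adjusted p up to 0.0957. Without the 4 libraries high in intestine markers no P450 gene passed as higher (9 had an unadjusted p below 0.05), while their log2 changes stayed between 0.52 and 1.06 and cyp2k19 still passed (adjusted p = 0.0464). Over all genes, higher calls went from 493 to 50 in that fit and lower calls from 1267 to 131. The loss of calls was thus not particular to P450 genes.

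**Figure D3:**
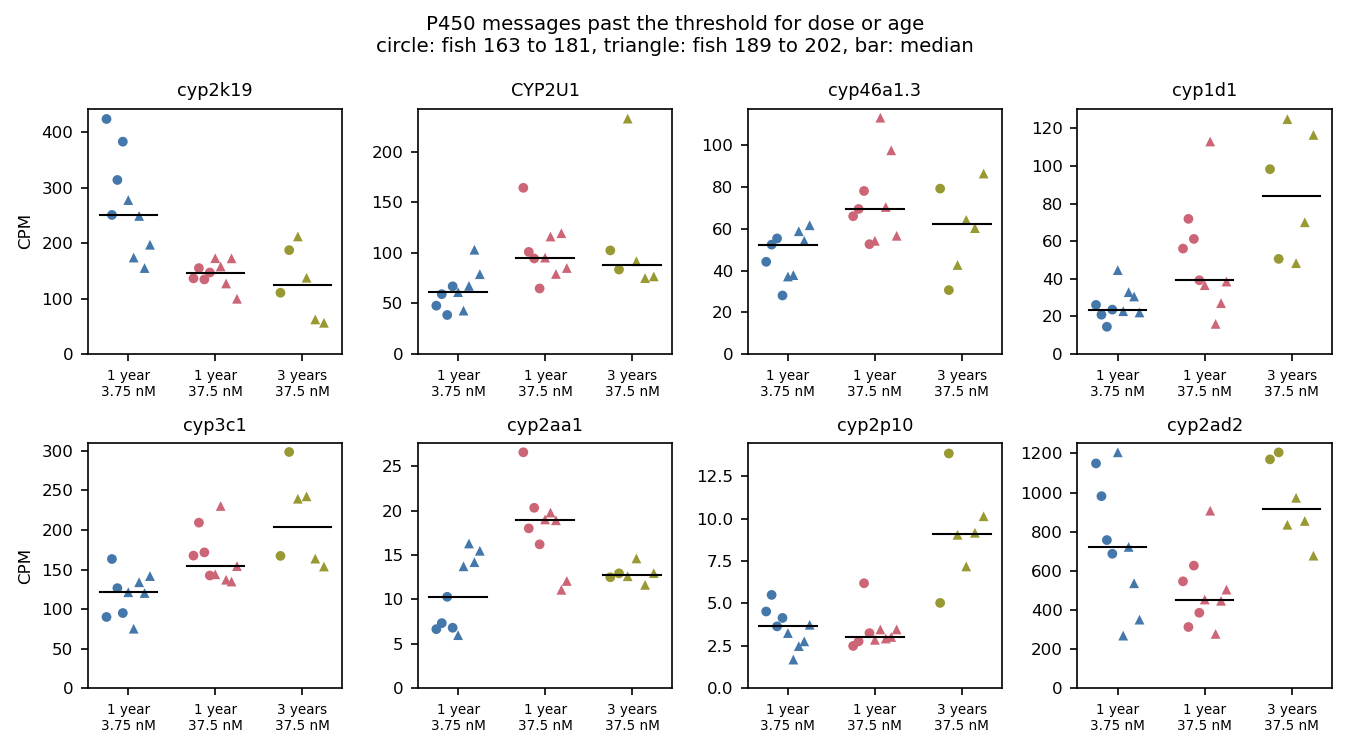
CPM per fish of the 8 P450 genes that passed for dose or age, on linear axes from 0. Circles are fish of the lower number series, triangles fish of the upper series and bars group medians; the median of cyp2k19 is highest in low-dose fish, and those of cyp2p10 and cyp2ad2 are highest in 3-year fish.

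The age comparison set the 6 three-year against the 9 high-dose 1-year fish. Of 70 P450 genes tested, 2 rose with age, both of family 2, and 0 fell. Over all 16159 genes tested 1.72% passed, 0.897% higher and 0.823% lower, so the 2.86% among P450 genes rests on those 2 genes. For P450 genes lower with age, edgeR gave 0 calls with 5 at an unadjusted p below 0.05, voom gave 0 and DESeq2 gave 3. Over all genes, edgeR gave 133 lower calls with 1524 at that unadjusted p, voom gave 461 and DESeq2 gave 634. The P450 counts are thus not a result about P450 genes. The median log2 change was -0.096 over the 70 genes.

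Both genes that rose lie in the run of 11 neighbours. Cyp2p10 belongs to a fish subfamily related to the fatty acid oxidising CYP2J enzymes of mammals. Its values were 5.03, 13.8, 9.04, 7.18, 9.16 and 10.1 CPM in the 3-year fish, against 2.50 to 6.19 CPM with a median of 3.02 in 1-year fish at the same dose. In 5 of 6 three-year fish it lay above every 1-year high-dose fish, and the sixth was passed only by high-dose replicate 3. The log2 change was 1.4 ± 0.22 (adjusted p = 0.00566), or 2.65-fold, and the call held in all 15 fits that left out 1 fish. Low-dose fish had 3.53 ± 1.14 CPM, close to the 3.38 ± 1.1 CPM of high-dose fish.

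Cyp2ad2 is far more abundant, at 362 CPM per kilobase over all fish against 2.91 for cyp2p10. It had 1169.9, 1205, 836, 973, 855 and 678 CPM in the 3-year fish, against 278 to 908 CPM with a median of 454 in 1-year high-dose fish. The log2 change was 0.92 ± 0.22 (adjusted p = 0.0491), and 3 of 6 three-year fish lay above all high-dose fish. Significance was lost when any 1 of 13 of the 15 fish was left out, with adjusted p up to 0.0988. It was lost also without the 2 high-dose libraries high in intestine markers (log2 change 0.81, adjusted p = 0.0984). High-dose replicate 7, where hepatocyte markers were lowest of that group, held the lowest cyp2ad2 value of the high-dose fish, and the part of that was not tested. Low-dose fish ranged up to 1206 CPM, as high as the 3-year fish.

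The other 9 genes of that run did not pass with age. Cyp2v1 had 22.6 ± 6.78 CPM in high-dose fish and 30.7 ± 5.36 CPM in 3-year fish (log2 change 0.42 ± 0.17, adjusted p = 0.189), and cyp2p9 had 221 ± 68.7 and 199 ± 73.1 CPM. The neighbours cyp2x8 and cyp2x9 were lower in 3-year fish without passing. Cyp2x8 averaged 207 ± 59.8 against 94.8 ± 45.6 CPM (log2 change -1.15 ± 0.40, adjusted p = 0.135), with 3-year replicate 2 far below the others at 9.67 CPM. Cyp2x9 averaged 149 ± 46.9 against 80.0 ± 41.1 CPM (log2 change -0.93 ± 0.33, adjusted p = 0.145). Cyp2aa1 had a log2 change of -0.51 ± 0.16 (adjusted p = 0.106).

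The most abundant genes outside cyp2ad2 did not pass with age. Cyp2k22 had 1176 ± 452 CPM in high-dose and 752 ± 429.8 CPM in 3-year fish (log2 change -0.67 ± 0.32, adjusted p = 0.274), and 3 of 6 three-year fish were below all high-dose fish. CYP1A1 had 679 ± 173 CPM in 3-year fish (log2 change -0.24 ± 0.18, adjusted p = 0.506). Cyp3a65 had 428 ± 243 CPM (log2 change -0.38 ± 0.41, adjusted p = 0.655). The 2 family 1 genes cyp1d1 and cyp1c2 averaged 84.8 ± 33.2 and 1.67 ± 0.576 CPM in 3-year fish, against 51.1 ± 29.0 and 0.888 ± 0.413 CPM, and neither passed. Cyp1c1 spread from 0.120 to 27.5 CPM among the 3-year fish. In family 3, cyp3c1 had 211 ± 58.1 CPM (log2 change 0.33 ± 0.17, adjusted p = 0.324). Cyp3c2 was nearly absent from 3-year replicates 2 and 3 (0.0299 and 0.0307 CPM) and ran from 3.28 to 6.25 CPM in the other 4. Cyp3c4 had 9.90 ± 3.09 CPM. In family 4, CYP4V2 ENSDARG00000061585 and cyp4t8 had 473 ± 97.7 and 206 ± 47.5 CPM in 3-year fish, and CYP4V2 ENSDARG00000062132 had 516 ± 121 CPM. None of these genes passed.

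Sterol and bile acid genes are the P450 genes by which the liver makes cholesterol and turns it into bile salts, which in cyprinid fish are largely bile alcohols. Of 17 genes 16 were tested. With dose 1 rose and 0 fell (4 of either direction had an unadjusted p below 0.05), and with age none passed. Over all genes 11.4% passed for dose, with 4332 of 15465 at an unadjusted p below 0.05, and 1.72% passed for age. Beside those shares, these counts are not results about the sterol and bile acid genes. The riser was cyp46a1.3, a relative of the cholesterol hydroxylase of mammalian brain. It ran from 28.0 to 61.7 CPM with a median of 52.4 in low-dose fish and from 52.6 to 113 CPM with a median of 69.5 in high-dose fish (log2 change 0.65 ± 0.19, adjusted p = 0.0331), and 6 of 9 high-dose fish lay above all low-dose fish. Three-year fish had 60.6 ± 21.2 CPM. In the same run of neighbouring genes, cyp46a1.2 averaged 83.1, 80.3 and 98.5 CPM in low-dose, high-dose and 3-year fish.

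CYP51A1 had 76.2 to 534 CPM with a median of 428 in low-dose fish, 38.9 to 657 CPM with a median of 216 in high-dose fish, and 74.6, 9.34, 69.9, 153, 47.8 and 10.5 CPM in the 3-year fish. All three-year fish lay below the high-dose median, but high-dose fish overlapped them. The log2 change was -0.56 ± 0.48 for dose (adjusted p = 0.475) and -1.86 ± 0.70 for age (adjusted p = 0.166), and neither passed. Of 24 tested genes of cholesterol synthesis outside the P450 family, 9 fell with dose and 0 rose, with a median log2 change of -1.30 (over all genes 8.19% fell, at a median of 0.027). Among them were mevalonate kinase MVK (-2.54 ± 0.54, adjusted p = 0.00913), the sterol isomerase EBP (-2.06 ± 0.47, adjusted p = 0.0122) and squalene synthase FDFT1 (-2.09 ± 0.52, adjusted p = 0.0175). Without the 4 intestine-high libraries, where lower calls over all genes went from 1267 to 131, 1 of the 24 passed, MVK (adjusted p = 0.0481), at a median of -1.09. In the upper number series alone none passed (16 had an unadjusted p below 0.05), at a median of -1.17. Over all genes, 492 higher and 726 lower had an unadjusted p below 0.05 in that series. With age 0 of 24 passed (10 had an unadjusted p below 0.05), at a median of -1.06. Over all 16159 genes tested for age, 3038 had an unadjusted p below 0.05, at a median of -0.0028. The values near the threshold included EBP (-1.71 ± 0.50, adjusted p = 0.0821) and the sterol oxidase MSMO1 (-1.71 ± 0.52, adjusted p = 0.0922). The listed genes were chosen with earlier results of these data known.

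CYP7A1, the rate-limiting enzyme of the classical bile acid pathway in mammals, was near 0 in most fish. It reached 235 CPM in low-dose replicate 3 and 113 CPM in low-dose replicate 8, then 22.9 CPM in low-dose replicate 4 and 21.2 CPM in high-dose replicate 1, and at most 8.64 CPM in the other 20 fish. The dose change of -3.41 ± 1.47 did not pass (adjusted p = 0.136). Low-dose replicate 3 is one of the 4 libraries high in intestine markers and replicate 8 is next to them, and without the 4 the change was -2.49. Between 3-year and high-dose fish it was -1.02 ± 1.23 (adjusted p = 0.695).

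The downstream CYP8B1 ENSDARG00000053068 was far more even, at 207 ± 54.0, 211 ± 78.1 and 164 ± 36.7 CPM in low-dose, high-dose and 3-year fish. CYP8B1 ENSDARG00000097556 lay at or below 1.47 CPM in 23 fish and at 15.0 CPM in low-dose replicate 8, so its dose change of -1.31 ± 0.72 (adjusted p = 0.244) turned to 0.64 without that fish. CYP7B1, an oxysterol hydroxylase, averaged 1.41, 1.33 and 1.04 CPM. Cyp39a1, also an oxysterol hydroxylase, had 48.1 ± 24.6, 74.8 ± 45.3 and 41.3 ± 41.1 CPM (log2 change for dose 0.68 ± 0.35, adjusted p = 0.216). It fell to 0.359 and 2.15 CPM in 3-year replicates 2 and 3, against 20.4 CPM or more in every 1-year fish. These are the 2 fish that nearly lacked cyp3c2.

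**Figure D4:**
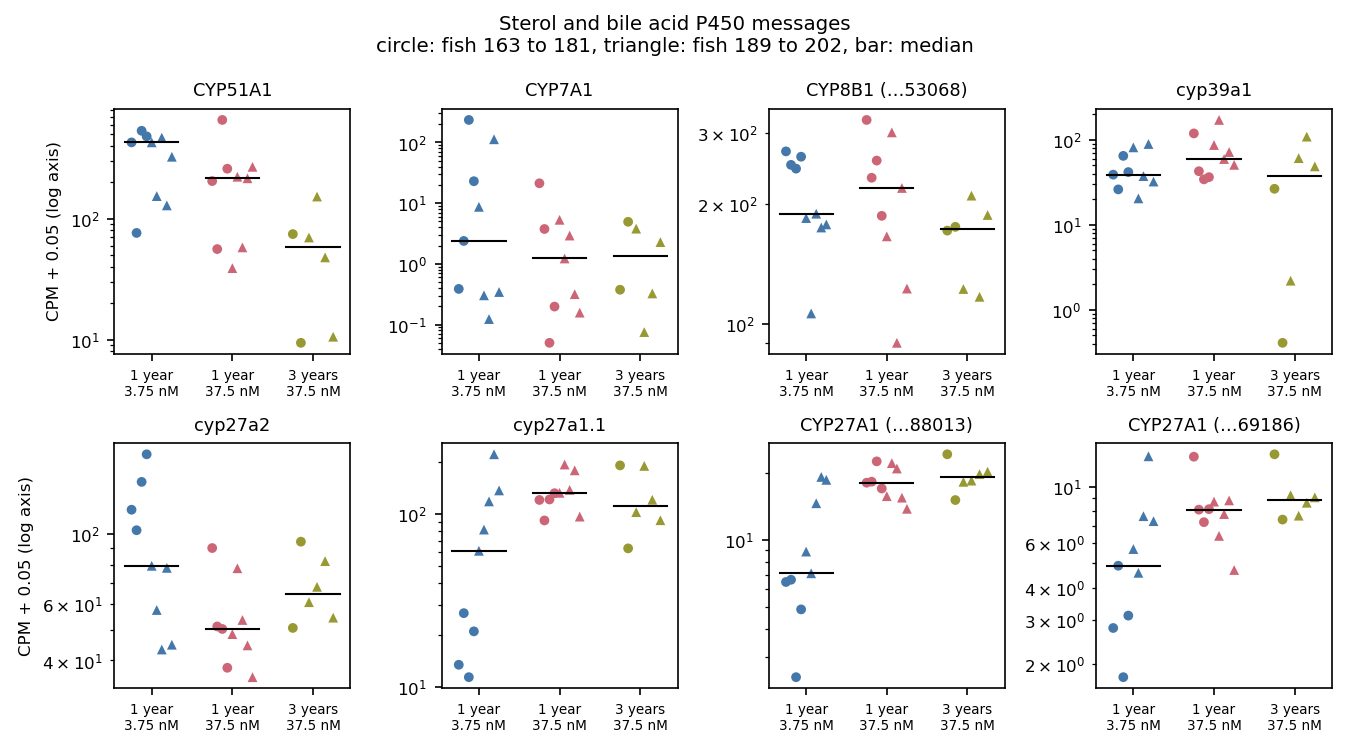
CPM per fish (log axis, 0.05 added) of 8 sterol and bile acid P450 genes. Circles are fish of the lower number series, triangles fish of the upper series and bars group medians; the 4 low-dose circles of cyp27a1.1 lie between 11.4 and 26.7 CPM, below every other fish.

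Of the 6 CYP27A genes, sterol hydroxylases of mitochondria, 3 passed a test of whether the dose change differed between the number series. Over all genes tested 7.86% passed it. The 3 were measured in the same fish and were not tested as a set, so their count is not a result about CYP27A genes. In the 4 low-dose fish of the lower series cyp27a1.1 had 13.4, 26.7, 11.4 and 21 CPM, and in the 5 of the upper series 61.2, 81.2, 118, 221 and 137 CPM. The high-dose fish had 91.7 to 132 CPM in the lower series and 96.5 to 193 CPM in the upper, and the 3-year fish 63.3 to 191 CPM. The 4 low-dose fish of the lower series thus lay below all other 20 fish. Over both series the dose change of 0.80 ± 0.49 did not pass (adjusted p = 0.298), with 2.79 in the lower series alone and 0.28 in the upper. The difference between the series (upper minus lower, edgeR interaction) was -2.55 ± 0.49 with an adjusted p of 0.00780.

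Of the 3 genes with the symbol CYP27A1, 2 had the same direction. CYP27A1 ENSDARG00000088013 had 6.43, 6.58, 2.38 and 4.84 CPM in low-dose fish of the lower series, 8.82, 7.04, 14.5, 19.1 and 18.5 CPM in those of the upper, and at least 13.7 CPM in every fish at 37.5 nM. Its interaction was -1.67 ± 0.44 (adjusted p = 0.0300). For CYP27A1 ENSDARG00000069186 the 4 low-dose fish of the lower series ran from 1.73 to 4.83 CPM and the others of that dose from 4.53 to 13.1 CPM, with an interaction of -1.77 ± 0.47 (adjusted p = 0.0310). The third, CYP27A1 ENSDARG00000055159, averaged 6.54, 6.68 and 8.63 CPM in low-dose, high-dose and 3-year fish and did not pass.

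Cyp27a2 went the other way without passing the interaction. It had 119, 103, 145 and 178 CPM in low-dose fish of the lower series, above the 43.2 to 79.3 CPM of the other low-dose fish, and its dose change was -0.72 ± 0.26 (adjusted p = 0.0816). Cyp27a3 had 116 ± 41.1, 98.3 ± 22.4 and 82.8 ± 16.7 CPM in low-dose, high-dose and 3-year fish. In all, 5 of 70 P450 genes passed the interaction, 1 higher and 4 lower, against 7.86% of all genes (2.22% higher and 5.65% lower), so the share is near the background. Besides cyp27a1.1 and these 2 CYP27A1 genes, they were cyp2v1 (-1.17 ± 0.29, adjusted p = 0.0217) and cyp3c4 (2.54 ± 0.62, adjusted p = 0.0215). Without the 4 intestine-high libraries cyp27a1.1 and CYP27A1 ENSDARG00000088013 still passed (adjusted p = 0.0463 for each), and so did cyp3c4 (0.0261), whereas CYP27A1 ENSDARG00000069186 (0.0688) and cyp2v1 (0.0846) did not. With low-dose replicate 8 also left out none of the 5 passed (11 P450 genes had an unadjusted p below 0.05).

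The values of some P450 genes left a wide gap between fish. The rule, set after seeing the values, was a gap of at least 2 log2 with 3 or more fish on each side. It was met by 2 P450 genes, cyp2aa8 and cyp3c3, of the 85 less the 14 under 0.5 CPM in every group. Of the 16214 genes tested for dose or age, 0.66% met it. The 2 sets were filtered differently and the P450 count rests on 2 genes, so it is not a result about P450 genes. Cyp2aa8 had 0.0325 to 0.449 CPM in 11 fish and 8.86 to 86.5 CPM in the other 13. The higher level was found in 6 of 9 low-dose, 5 of 9 high-dose and 2 of 6 three-year fish, and in both number series. In the same run of neighbouring genes, cyp2aa1 showed no such split. Cyp2x10.1 (0.757 to 3.55 CPM in 8 fish, 12.2 to 73.6 in 16) and cyp2k31 (0.778 to 3.31 CPM in 10 fish, 11.2 to 63.2 in 14) had narrower gaps. Those gaps, of 1.65 and 1.62 log2, did not meet the rule, and no share over all genes was taken for them. Above its gap, cyp2k31 held 8 of 9 low-dose, 4 of 9 high-dose and 2 of 6 three-year fish, and it did not pass in either comparison. Cyp2x10.2 was highest in 3-year replicates 3 and 4, at 27.1 and 38.9 CPM, and at most 3.64 CPM in all other fish (age change 2.4 ± 0.75, adjusted p = 0.0998).

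**Figure D5:**
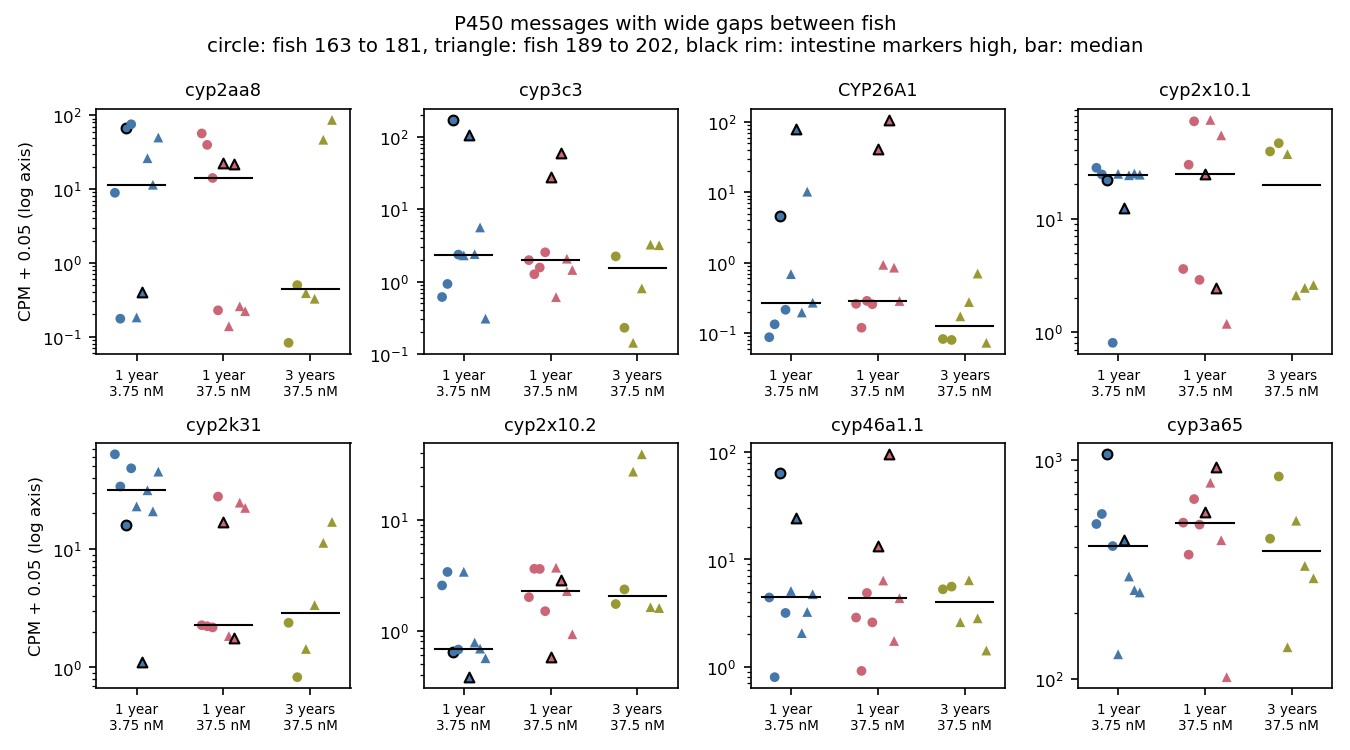
CPM per fish (log axis, 0.05 added) of P450 genes with wide gaps between fish, and of cyp3a65 for comparison. Symbols with a black rim are the 4 libraries high in intestine markers; cyp3c3 and cyp46a1.1 are highest in those 4, and cyp2aa8 splits into 2 levels in every group.

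Other high values fell in libraries high in intestine markers. Cyp3c3, the other gene past the rule, had 171 and 104 CPM in low-dose replicates 3 and 6, 27.9 and 59.9 CPM in high-dose replicates 5 and 7, and at most 5.53 CPM elsewhere. Its age change of -2.85 ± 1.21 (adjusted p = 0.218) was -0.032 without these libraries. Cyp46a1.1 had 13.4 to 95.6 CPM in those 4 fish and at most 6.35 CPM elsewhere, and its age change of -1.95 ± 0.97 (adjusted p = 0.299) became 0.22. Cyp46a1.5, next to cyp46a1.1, was highest in low-dose replicate 3 at 10.9 CPM. CYP26A1, which clears retinoic acid, had 79.5, 41.6 and 107 CPM in 3 of them, 4.51 in the fourth, 10.1 in low-dose replicate 8 and at most 0.881 CPM elsewhere, and did not reach the filter. Cyp3c4 was highest in low-dose replicate 3 and high-dose replicate 7, at 28.6 and 18.3 CPM. The widest gaps of cyp46a1.1 and CYP26A1, of 1.02 and 1.98 log2, did not meet the rule. No share over all genes was taken for this pattern, so it is not a result about P450 genes. The part of intestinal RNA in these values was not tested.

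The lists that follow hold partners and regulators of P450 enzymes. Over all genes tested, 11.4% passed for dose (3.19% higher and 8.19% lower) and 1.72% for age. Beside those shares, the small counts of calls per list are not results about the lists. Of 12 tested genes for electron donors and haem-binding partners, 1 fell with dose. This was cyb5b, the cytochrome b5 of the mitochondrial outer membrane (84.5 ± 40.8 to 32.2 ± 11.2 CPM, log2 change -1.32 ± 0.27, adjusted p = 0.00830). With age 1 fell, the haem-binding PGRMC2 (73.8 ± 9.96 to 50.8 ± 6.72 CPM, -0.56 ± 0.11, adjusted p = 0.0159). The mitochondrial ferredoxin fdx1 did not pass for dose (-0.78 ± 0.36, adjusted p = 0.169).

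Of 14 haem genes 1 rose and 1 fell with dose and none passed with age. UROD, an enzyme of haem synthesis, fell (-0.52 ± 0.15, adjusted p = 0.0313), and alas2, the red cell form of the first enzyme of haem synthesis, rose (1.17 ± 0.35, adjusted p = 0.0385). Of the 10 other erythrocyte markers tested, 4 also rose with dose, and without alas2 the summed level of that list ran from 128 to 229.6 CPM in low-dose and 155 to 611 CPM in high-dose fish. The part of red cells in the rise of alas2 was not tested. ALAS1, the form of that enzyme in liver, did not pass with age (-0.75 ± 0.34, adjusted p = 0.247).

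Among regulators, 1 of 7 tested genes of the Ah receptor list and 1 of 22 nuclear receptors and liver regulators rose with dose, and none fell. The receptor gene ahr2 went from 66.1 ± 14.9 to 93.2 ± 13.9 CPM (0.53 ± 0.14, adjusted p = 0.0229), and its partner arnt did not pass (0.65 ± 0.22, adjusted p = 0.0611). NR1I2, which encodes PXR, went from 22.3 ± 16.5 to 50.7 ± 22.5 CPM (1.19 ± 0.36, adjusted p = 0.0418). With age neither list had a call, and the lowest p among them included PPARA, the fatty acid receptor (-0.76 ± 0.27, adjusted p = 0.145).

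Bile acid synthesis outside the P450 family (8 tested) and bile acid transport and feedback (11 tested for dose, 12 for age) had no call in either comparison. Nearest to the threshold for dose were fgfr4, a receptor that represses CYP7A1 in mammals (1.05 ± 0.34, adjusted p = 0.0532), and the bile salt transporter slc51a (-0.79 ± 0.29, adjusted p = 0.0776). The conjugating enzymes, which act on P450 products, had 1 call among 30. The sulfotransferase sult1st6 fell from 108 ± 46 to 51.5 ± 14.4 CPM with dose (-1.01 ± 0.24, adjusted p = 0.0135) and stood at 78.4 ± 18.9 CPM in 3-year fish. Without the 4 intestine-high libraries, the calls for cyb5b (adjusted p = 0.0464) and PGRMC2 (adjusted p = 0.0270) held, while those for UROD, alas2, ahr2, NR1I2 and sult1st6 did not (adjusted p from 0.0649 to 0.153). Dose calls over all genes went from 493 to 50 higher and from 1267 to 131 lower in that fit.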

How the data were processed

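Liver RNA of 24 male zebrafish was sequenced after TruSeq RNA v2 library preparation, per the labels' protocols. The authors deposited raw counts per gene. Per the submitters' processing notes the tools were CASAVA 1.8.2, STAR 2.4.1d and featureCounts 1.4.6-p4 with build GRCz10; strand and multi-mapping settings are not given in the sources used here. The 2 count tables were joined on gene identifier, and 0 sample columns were left unused. The authors also deposited values named RPKM. Their divisors repeated every 44 rows, so they were used only to recover the gene lengths behind CPM per kilobase (84 of 85 genes). No pair of replicates repeated another (lowest chi-square per gene 81.4 over 87 pairs within groups).

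TMM factors and the filterByExpr filter preceded a two-sided F test (edgeR 4.0.16, quasi-likelihood) over all genes, per comparison, with Benjamini-Hochberg adjustment at 0.05 (biological coefficient of variation 0.535 for dose and 0.510 for age). SEs come from the log2 change and F. The test was run on simulated data first. Each library is 1 fish, so the spread behind each p-value is that between fish. Alternatives used RLE, upper-quartile or library-size scaling, other filters, DESeq2 1.42.0, limma 3.58.1 voom with quality weights, number series as a covariate or alone, all groups in 1 fit, and fits without single fish or without the libraries high in intestine markers. R 4.3.3 and Python 3.11.15 were used.

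The P450 genes and the gene lists were chosen with earlier results of these data known. Genes are named if past the threshold, among the 12 highest per kilobase, in families 1 and 3 or the sterol and bile acid group, or among the 3 lowest p-values per comparison of families 2 and 4 and of each pathway list. From the pathway lists only part of these are described. Members averaging under 0.5 CPM in all groups are counted only. CYP20A1, CYP26A1, cyp2aa8, cyp2k31 and cyp2x10.1 were named after their values were seen. No sequence is shown.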

Additional observations from a re-analysis of the deposited data

Results flagged for a closer look

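Among the genes named, 126 groups were examined for 1 fish far from the others, and 11 had one. The nominal rate of this rule, about 1 group in 20, holds for independent normal values. The genes named were partly picked from these data and share the same fish, so the 11 cannot be set against that rate. In low-dose fish, replicate 3 was high for cyp3c4 (28.6 CPM, the others at most 9.41) and cyp46a1.5 (10.9 CPM, the others at most 2.16). Replicate 6 was low for CYP8B1 ENSDARG00000053068 (106 CPM, the others at least 174) and CYP1A1 (211 CPM, the others at least 508). Both fish are among the 4 libraries high in intestine markers, and the part of that was not tested. Replicate 8 was high for CYP8B1 ENSDARG00000097556 (15.0 CPM, the others at most 0.770).

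In high-dose fish, replicate 9 was low for cyp3a65 (102 CPM, the others at least 370.4), and replicate 3 was high for cyp2v1 (39 CPM, the others at most 25.4) and cyp2p10 (6.19 CPM, the others at most 3.47). In 3-year fish, CYP2U1 was high in replicate 3 (233 CPM), CYP27A1 ENSDARG00000069186 was high in replicate 1 (13.3 CPM) and cyp2x8 was low in replicate 2 (9.67 CPM).

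The dose change differed between the number series for 5 of 70 P450 genes tested, or 7.14% (edgeR interaction, upper minus lower series). Over all genes tested 7.86% passed, so the count is not a result about P450 genes. None of the 5 passed without the intestine-high libraries and low-dose replicate 8. The difference was -2.55 log2 for cyp27a1.1 (adjusted p = 0.00780), -1.77 for CYP27A1 ENSDARG00000069186 (adjusted p = 0.0310), -1.67 for CYP27A1 ENSDARG00000088013 (adjusted p = 0.0300), -1.17 for cyp2v1 (adjusted p = 0.0217) and 2.54 for cyp3c4 (adjusted p = 0.0215).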

How the results depend on the processing

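The main counts were 5 genes higher and 1 lower for dose, 2 higher and 0 lower for age, and 1 higher and 4 lower for the interaction. For dose, higher genes numbered 2 without a filter, 8 with DESeq2, 10 with voom, 10 in the lower series alone, 0 in the upper series alone (5 at an unadjusted p below 0.05, and 0 of all genes called), 0 without the intestine-high libraries (9 at an unadjusted p below 0.05) and 2 with low-dose replicate 8 also left out, a setting chosen after seeing the data. Lower genes numbered 3 with library size alone, 2 with a 1 CPM filter, 5 with DESeq2, 6 with voom, 7 in the lower series, 0 in the upper (1 at an unadjusted p below 0.05) and 2 with all 3 groups in one fit. Over all genes, higher and lower dose calls also moved with the setting. They numbered 283 and 848 without a filter, 910 and 1796 with DESeq2 and 1898 and 2087 with voom. In the lower series alone they were 2625 and 2666, with library size alone 321 and 1350 and with a 1 CPM filter 630 and 1325. The P450 counts per setting are thus not a result about P450 genes. Leaving out 1 fish gave 0 to 7 higher P450 genes (0 without low-dose replicates 1, 3 or 4, and 7 without low-dose replicate 8) and 1 to 4 lower. For age, higher genes numbered 1 with RLE, without a filter, in the upper series, without the intestine-high libraries and with all 3 groups in one fit, 0 in the lower series (7 at an unadjusted p below 0.05) and 4 with DESeq2, which also called 3 lower. Over all genes, DESeq2 called 562 higher and 634 lower with age, and the lower series alone 4 and 9. Leaving out 1 fish gave 1 to 3 higher and 0 to 0 lower P450 genes, with 3 without high-dose replicate 3. For the interaction DESeq2 called 4 higher, the fit without intestine-high libraries 2 lower, and that without low-dose replicate 8 too 0 in both directions (4 and 7 at an unadjusted p below 0.05). Over all genes, higher and lower interaction calls in these 3 fits numbered 885 and 1131, 202 and 261, and 36 and 67.

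Of single genes, CYP8B1 ENSDARG00000097556 turned to 0.60 for dose with DESeq2, 0.27 with voom, 0.97 in the lower series and 0.61 without the 5 libraries (one fish out: -1.46 to 0.64). In the lower series alone, cyp3a65 turned to -0.22 for dose and 0.28 for age, and the age changes of cyp2x10.2, cyp27a1.1, cyp46a1.1 and cyp4f3 turned to -0.44, 0.069, 0.92 and 0.45. Without the intestine-high libraries that of cyp46a1.1 was 0.22. With 1 fish left out, the age changes of CYP7A1 and cyp27a1.1 ran from -1.55 to 0.13 and from -0.28 to 0.026. The cause was not tested. The 12 highest genes per kilobase were the same with library size alone and without the intestine-high libraries, and without division by length shared 10. No paired analysis was possible because the labels give no shared replicate numbers between groups. With number series as a covariate, 7 P450 genes were higher and 1 lower for dose, cyp27a1.1 (adjusted p = 0.0353) and CYP27A1 ENSDARG00000088013 (adjusted p = 0.0222) being added, and 2 higher and 0 lower for age. Over all genes, higher and lower calls numbered 493 and 1267 for dose (909 and 1637 with that covariate, 50 and 131 without the intestine-high libraries) and 145 and 133 for age (320 and 252, then 113 and 95). With 2 lower-series fish at 3 years, the age change in that series rests on those fish.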
